A study of Macaca mulatta with 27 samples.

Results

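The DNA replication genes are a set of 45 genes named for their role in copying the genome. No threshold on their values was used to choose them, but earlier results of these data were known when they were chosen. Of these, 44 were found among the 17967 gene symbols of the count tables, and POLD1 was not analysed here. The set was divided by role into origin recognition and helicase loading (9 genes), the MCM2-7 helicase (6), helicase activation (6), the polymerases and primase (9, of which 8 were found), the sliding clamp and its loader (6), single-strand binding and Okazaki fragment joining (5), and nucleotide supply (4).

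DNA replication is prepared in the G1 phase, when the origin recognition complex, CDC6 and CDT1 load the MCM2-7 helicase onto chromatin, a step called licensing. Kinases then recruit CDC45 and the GINS complex to start unwinding, and from there polymerases held by the PCNA clamp copy both strands in the S phase, while geminin (GMNN) binds CDT1 and blocks a second round of licensing. Many of these genes are targets of the E2F transcription factors and are transcribed around the passage from G1 to S.

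One question of the study was whether rhesus monkey pluripotent stem cells (PSCs), once dissociated or injected into embryos, pass from G1 into DNA replication, and the transcripts described here were measured in the cultures themselves. Bulk RNA was sequenced from 27 libraries of Macaca mulatta embryonic stem cells, 6 from primed cultures and 3 from each of 7 reprogramming protocols, labelled TL2i, TL-CDK8i, t2iLGöY, 4i/L/b, LCDM (EPS), NHSM-v and E-NHSM. The cells were of 1 line, LyonES-tGFP-(S3), which carries tauGFP driven by the CAG promoter and a STAT3-ERT2 fusion that tamoxifen activates, so that the primed controls carry both transgenes too. TL2i cells received tamoxifen, LIF and inhibitors of MEK and GSK3β. TL-CDK8i cells received tamoxifen and LIF with the CDK8/19 inhibitor CNIO-47799 in place of these inhibitors. The other 5 protocols were used without tamoxifen. Reprogrammed cells were passaged as single cells and primed cells mechanically in clumps, so passage method and protocol cannot be told apart. No source used here says that replicates were separate cultures, and p-values then measure the spread between these libraries, which may be technical. All 7 comparisons with primed cells share the same 6 primed libraries, named J1 to J3 and K1 to K3 after the letters of their columns.

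Total counts ranged from 7111886 to 20760914 per library, with a median of 12201171. Every member was counted in every library, with 61 counts as the lowest value, that of GINS3. Levels are given as CPM, the counts of a gene scaled to the library's total, after TMM scaling, and they are compared between groups and not between genes, since they are not divided by transcript length. Fold changes are on the log2 scale with their standard error (SE), and a gene is said to have risen or fallen where the adjusted p of edgeR's quasi-likelihood test, over all genes tested, was below 0.05.

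Markers of cell identity differed widely between the groups. The summed level of 7 pluripotency markers was 5436 to 6130.2 CPM in primed libraries and 6294 to 6351 CPM in E-NHSM libraries. It was 1514 to 2118 CPM in TL-CDK8i, 425 to 514 in TL2i, 429 to 454 in LCDM (EPS), 186 to 196 in t2iLGöY, 158 to 162 in 4i/L/b and 121 to 137 in NHSM-v libraries. NANOG and PRDM14 were at 0 in all 3 NHSM-v libraries, and NANOG and TDGF1 at 0 in all 3 t2iLGöY libraries. The sums were thus below the primed range in every protocol but E-NHSM, where they were above it. In NHSM-v and t2iLGöY cells the absence of NANOG transcripts goes against the pluripotent state that the protocols were meant to reach. These 7 markers are not particular to the naive state, which was not tested with them. In bulk RNA, fewer cells of a type and less RNA of a gene per cell cannot be told apart.

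In 3 of the 7 protocols 33 of the 44 DNA replication genes fell against primed cells. In NHSM-v cells 33 members fell and 0 rose, whereas 30.6% of all genes tested fell and 28% rose. In 4i/L/b cells 33 fell and 0 rose, against 29% and 26.6% of all genes. In t2iLGöY cells 33 fell and 1 rose, against 27.2% and 27.1% of all genes. These 33 members are 75% of the 44 in each of the 3 protocols. For the 0 members that rose in 4i/L/b and NHSM-v cells by edgeR, the count at an unadjusted p below 0.05 was also 0 in both, and with DESeq2 it was 1 in both at an adjusted p below 0.05.

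The other 4 protocols showed smaller shares. In TL-CDK8i cells 24 members (54.5%) fell and 4 rose, against 23.8% and 22.3% of all genes. In TL2i cells 21 members (47.7%) fell and 3 rose, against 25.2% and 25.6% of all genes. In LCDM (EPS) cells 18 members (40.9%) fell and 5 rose, against 28.9% and 28.2% of all genes, so that the share that fell stood nearer to that of all genes than in the protocols above. In E-NHSM cells 15 members (34.1%) fell and 1 rose, against 15.1% and 11.1% of all genes. With upper-quartile scaling or total counts only, 9 fell and 3 rose in E-NHSM cells. Of all genes, 12.9% and 12.5% fell and 14.1% and 14.8% rose under these settings. In E-NHSM cells 8 fell without library E-NHSM 1 and 9 without E-NHSM 3, where 11.1% and 11% of all genes fell. With total counts only, 15 fell and 7 rose in LCDM (EPS) cells, against 25.1% and 32.5% of all genes. The count of 24 in TL-CDK8i cells became 16 without library TL-CDK8i 1, where 18.6% of all genes fell. The 5 members that rose in LCDM (EPS) cells became 3 without any 1 of the 3 LCDM (EPS) libraries. Of all genes, 23.6% to 23.9% rose there.

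**Figure D1:**
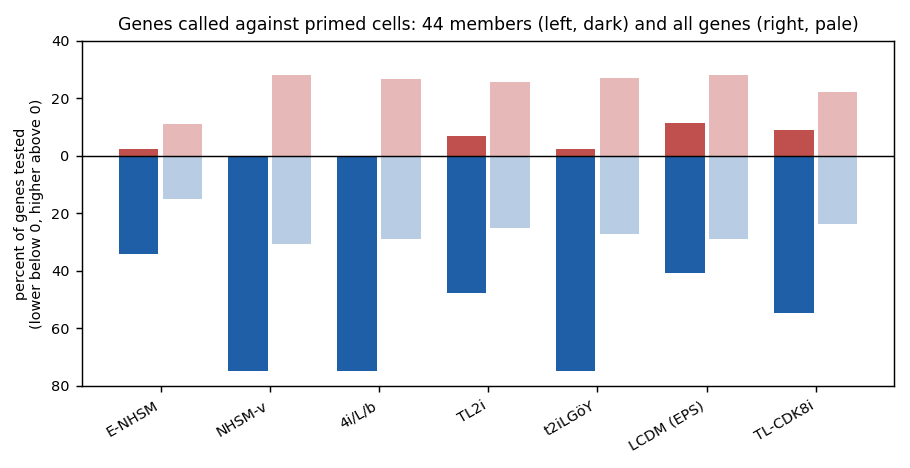
Percent of genes called higher (red, above 0) or lower (blue, below 0) than in primed cells in each of 7 protocols, for the 44 DNA replication genes (dark bars) and for all genes tested (pale bars). The dark bars below 0 reach 75% in NHSM-v, 4i/L/b and t2iLGöY, and the dark bars above 0 are shorter than the pale ones in all 7 protocols.

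The size of the shift followed the same protocols. The median log2 fold change of the 44 members was -0.86 in NHSM-v, -0.80 in t2iLGöY and -0.65 in 4i/L/b cells, where the median of all genes tested was -0.02, 0.02 and 0.01. It was -0.33 in TL-CDK8i, -0.32 in TL2i, -0.28 in LCDM (EPS) and -0.16 in E-NHSM cells, beside 0.02, 0.07, 0.03 and 0.02 for all genes. With total counts only, the median of all genes moved to 0.19 in TL2i, 0.15 in t2iLGöY and 0.15 in LCDM (EPS) cells, and the median of the members was still below 0 in all 7 protocols under each scaling tried. A fall of at least 1 on the log2 scale was seen for 18 members in NHSM-v, 17 in t2iLGöY, 13 in 4i/L/b, 4 in LCDM (EPS) and 1 in E-NHSM cells, and for 0 in TL2i and TL-CDK8i cells. Among all genes tested, 16.8% fell by that much in NHSM-v, 13.8% in t2iLGöY, 12.5% in 4i/L/b, 14.8% in LCDM (EPS), 5.73% in E-NHSM, 9.39% in TL2i and 6.69% in TL-CDK8i cells. The members stood above this background in the first 3 of these protocols (40.9%, 38.6% and 29.5%) and below it in LCDM (EPS) (9.09%), E-NHSM (2.27%), TL2i (0%) and TL-CDK8i (0%) cells.

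Summed over the 44 members, the level was 6464 ± 187 CPM (SD, n = 6) in primed libraries, with a range of 6240.1 to 6682 CPM. The lowest sums were those of t2iLGöY (3309 to 3715 CPM), NHSM-v (3585 to 3686 CPM) and 4i/L/b (3712 to 4169 CPM), and the t2iLGöY range overlaps both of the others. LCDM (EPS) libraries summed to 4811 to 5014 CPM, TL2i to 4654 to 5476 CPM, TL-CDK8i to 4923 to 5544 CPM and E-NHSM to 5131 to 5344 CPM. These 4 protocols overlap one another in their ranges, except LCDM (EPS) and E-NHSM, and no library of any protocol reached the lowest primed sum.

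**Figure D2:**
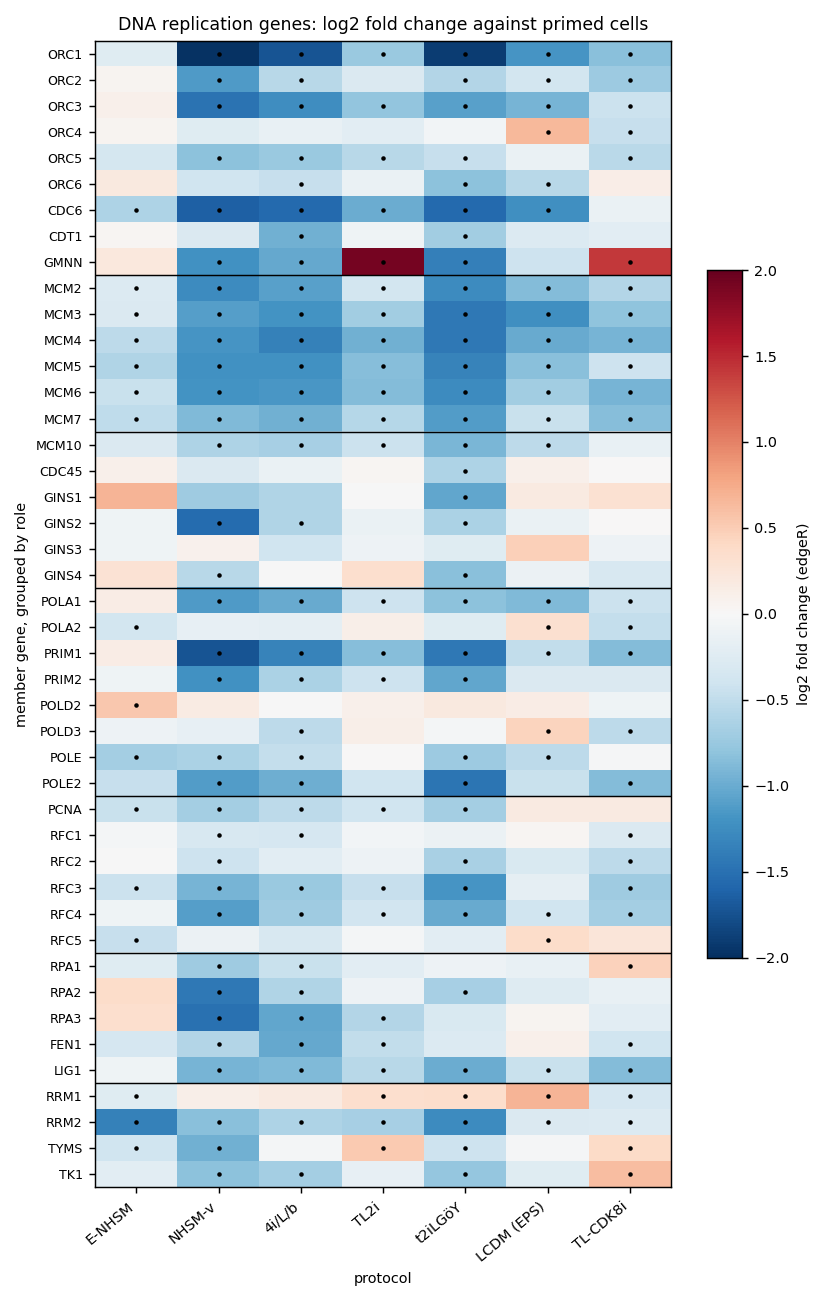
Log2 fold change against primed cells of the 44 DNA replication genes (rows, divided by role) in 7 protocols (columns), with blue for lower and red for higher values on a scale from -2 to 2 and a black dot where the adjusted p was below 0.05. The 6 rows of MCM2 to MCM7 are blue with a dot in all 7 columns, and GMNN is dark red in TL2i and TL-CDK8i and blue in NHSM-v, 4i/L/b and t2iLGöY.

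Of the 44 members, 43 (97.7%) changed in at least 1 protocol and GINS3 passed the test in none, and of the 12732 genes tested in all 7 comparisons 88% changed in at least 1. MCM2, MCM3, MCM4, MCM5, MCM6, MCM7 and RRM2 fell in all 7 protocols, and 0 members rose in all 7. A further count by direction gave 33 members that fell in 1 or more protocols and rose in none, 9 that rose in some and fell in others, and 1, POLD2, that rose in 1 protocol and fell in none. The shares of all genes that fell in all 7 protocols or moved in 1 direction only were not counted. The 7 comparisons share their primed libraries, so calls that recur across them are not independent.

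The 6 subunits of the MCM2-7 helicase, the ring that unwinds DNA ahead of the fork and that is loaded at origins in G1, fell together in every protocol. MCM4 was at 456 to 549 CPM with a median of 499 CPM in the 6 primed libraries. It was at 188, 169.9 and 186 CPM in t2iLGöY, 219.7, 189 and 199 CPM in 4i/L/b and 221, 226 and 225 CPM in NHSM-v libraries. It was at 264, 249 and 233 CPM in LCDM (EPS), 256, 266 and 296 CPM in TL-CDK8i, 280.2, 240.3 and 256 CPM in TL2i and 343, 350.1 and 359 CPM in E-NHSM libraries. No reprogrammed library overlapped the primed range, and the E-NHSM libraries stood nearest to it. The log2 fold change ranged from -1.44 ± 0.09 in t2iLGöY (adjusted p = 3.28e-09) to -0.52 ± 0.07 in E-NHSM cells (adjusted p = 4.45e-05).

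MCM7 had the smallest mean fall of the 6 subunits. Its primed libraries ranged from 349 to 393 CPM with a median of 376 CPM. Its level was 153, 161 and 192 CPM in t2iLGöY, 208, 179 and 203 CPM in 4i/L/b, 192, 220.1 and 204 CPM in NHSM-v and 196, 217 and 231 CPM in TL-CDK8i libraries. In TL2i, E-NHSM and LCDM (EPS) libraries it was at 268, 219 and 265 CPM, at 261, 267 and 264 CPM and at 276, 299 and 249 CPM. All 21 reprogrammed libraries were below the lowest primed one, and LCDM (EPS) 2 came closest to it. The change ran from -1.12 ± 0.09 in t2iLGöY (adjusted p = 6.81e-08) to -0.44 ± 0.07 in LCDM (EPS) cells (adjusted p = 0.000164).

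The other 4 subunits kept to this pattern. MCM2 was at 368 to 435 CPM in primed libraries and at 143 to 179 CPM in t2iLGöY libraries, and MCM3 at 432 to 567 CPM and 158 to 193 CPM in the same groups. MCM5 was at 185 to 255 CPM in primed and 63.3 to 89.7 CPM in t2iLGöY libraries, and MCM6 at 399.6 to 468 CPM and 155 to 210.3 CPM. In these 4 genes the fold changes in t2iLGöY cells lay between -1.43 and -1.25. The smallest falls of the 6 subunits were those of MCM2 (-0.27 ± 0.08, adjusted p = 0.0131) and MCM3 (-0.29 ± 0.09, adjusted p = 0.0194) in E-NHSM cells. These were also the least firm, with adjusted p values of up to 0.0809 and 0.104 over the alternatives, and both calls were lost with upper-quartile scaling and with total counts only. MCM3 lost its call without E-NHSM 1, 2 or 3 (adjusted p = 0.0584, 0.0754 and 0.104), and MCM2 without E-NHSM 1 or 3 (adjusted p = 0.067 and 0.0678).

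The summed level of the 6 subunits in t2iLGöY cells was 39.5% of the primed mean. It was 46% in 4i/L/b, 46.3% in NHSM-v, 55.5% in LCDM (EPS), 60.3% in TL-CDK8i, 61.4% in TL2i and 75.2% in E-NHSM cells. For all 44 members together the same shares were 54.8%, 60.9%, 56.5%, 76.1%, 80.7%, 78.5% and 81%, each above that of the helicase, which is part of this sum. The helicase was not the lowest role in E-NHSM cells, where nucleotide supply stood at 60.2%. In NHSM-v cells origin recognition and loading stood close to it, at 47.5%.

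**Figure D3:**
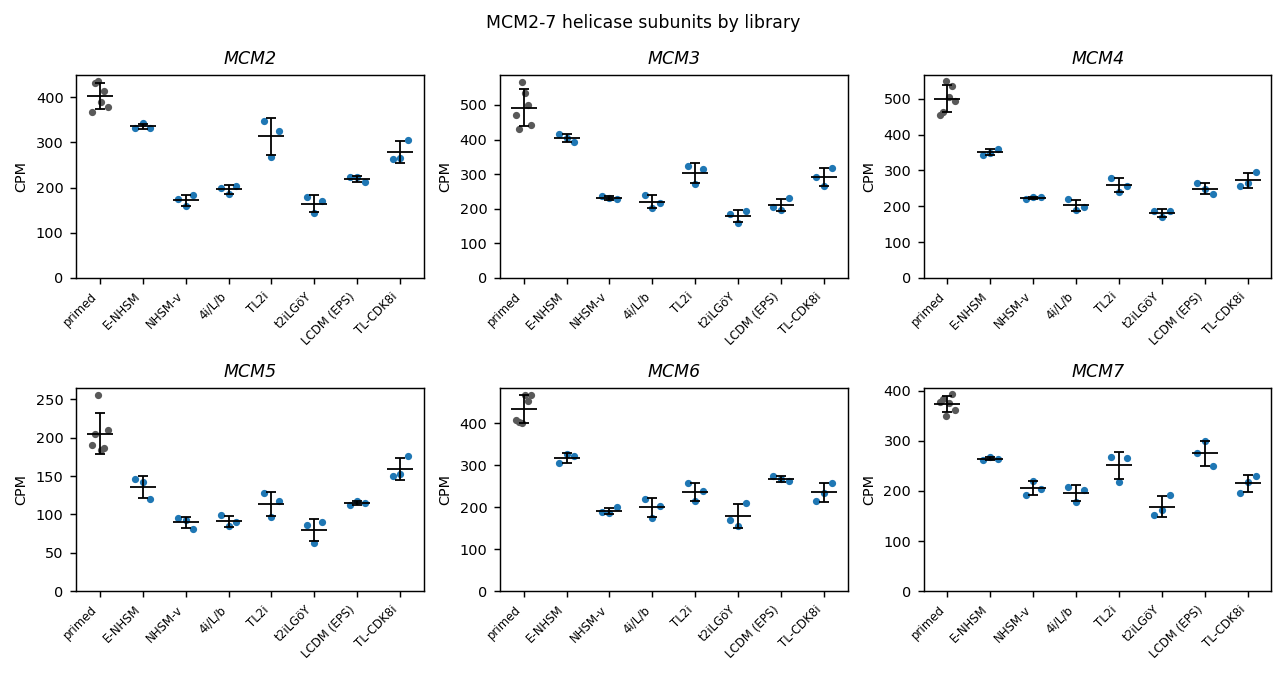
Levels of the 6 helicase subunits in CPM (linear axes from 0) in 6 primed libraries (grey points) and 3 libraries of each protocol (blue points), with horizontal marks for group means and error bars for 1 SD. In each panel the blue points lie below the grey ones, and those of E-NHSM are the closest to the primed ones by group mean for MCM2, MCM3, MCM4 and MCM6.

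Among the origin recognition and loading genes, ORC1 and CDC6 fell most. ORC1, the ATPase subunit of the origin recognition complex whose level oscillates over the cell cycle, was at 113 to 146 CPM with a median of 132 CPM in primed libraries. It was at 36.5, 34.2 and 30.02 CPM in NHSM-v, 37, 32.7 and 33.2 CPM in t2iLGöY and 46.2, 34.3 and 40.5 CPM in 4i/L/b libraries. It was at 61, 59.8 and 50.1 CPM in LCDM (EPS), 78.2, 71 and 75.6 CPM in TL-CDK8i, 84.4, 72.5 and 77.7 CPM in TL2i and 114, 104 and 112 CPM in E-NHSM libraries. E-NHSM libraries overlapped the primed range and those of the other 6 protocols lay below it. The log2 fold change was -1.98 ± 0.13 in NHSM-v cells (adjusted p = 4.14e-09), and that of E-NHSM cells, -0.25 ± 0.10, did not pass the test (adjusted p = 0.0909).

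CDC6, the ATPase that joins the origin recognition complex to recruit the helicase, was at 142 to 189 CPM with a median of 166 CPM in primed libraries. In NHSM-v, t2iLGöY and 4i/L/b libraries its ranges were 43.2 to 60.2, 51.9 to 57.6 and 51.2 to 66.8 CPM, and in LCDM (EPS), TL2i and E-NHSM libraries 67.9 to 73.6, 76.8 to 88.6 and 100.1 to 115 CPM. TL-CDK8i libraries, at 152, 139 and 175 CPM, overlapped the primed range, and those of the other 6 protocols did not. The log2 fold change of CDC6 was -1.63 ± 0.14 in NHSM-v cells (adjusted p = 1.05e-07) and -0.61 ± 0.11 in E-NHSM cells (adjusted p = 0.000439). In TL-CDK8i cells the value was -0.14 ± 0.12 (adjusted p = 0.347).

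Other subunits of the origin recognition complex differed from ORC1. ORC4 was at 51.4 to 73.3 CPM with a median of 60.3 CPM in primed libraries and at 84.8, 99.8 and 104 CPM in LCDM (EPS) libraries, all 3 above the primed range, with a log2 fold change of 0.64 ± 0.12 (adjusted p = 0.000552). In TL-CDK8i libraries ORC4 was at 44.1, 47.9 and 48.1 CPM, all below the primed range (-0.46 ± 0.13, adjusted p = 0.0112), a call lost with primed columns J only and without TL-CDK8i 1 (adjusted p = 0.0718). In E-NHSM, t2iLGöY, TL2i, 4i/L/b and NHSM-v libraries ORC4 was at 61.3, 67.7 and 65.5 CPM, 61.9, 58.7 and 54.4 CPM, 55.3, 58.4 and 46.1 CPM, 57.4, 52.5 and 61.8 CPM and 59.3, 48.7 and 52 CPM, which overlap the primed range. ORC3 fell in 6 protocols, most in NHSM-v cells (43.6 to 53.7 against 108 to 138 CPM, -1.47 ± 0.13), and ORC2 fell in 5, again most in NHSM-v cells (36.7 to 44.9 against 74 to 109 CPM, -1.13 ± 0.14). ORC5 fell in 5 protocols and ORC6 in 3, with log2 fold changes between -0.82 and -0.46 and between -0.83 and -0.47 where they were called. Single libraries decided the calls of ORC3 in TL-CDK8i cells (adjusted p = 0.0573 without TL-CDK8i 1) and of ORC2 in LCDM (EPS) cells (adjusted p = 0.0922, 0.068 and 0.0707 without LCDM (EPS) 1, 2 or 3).

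GMNN had the widest range of log2 fold changes among the 44 members and moved in opposite directions. Geminin, its product, binds and inhibits CDT1 in S, G2 and M phases and serves as a reporter of those phases. GMNN was at 36 to 61.2 CPM with a median of 56.9 CPM in primed libraries. It was at 219.7, 181 and 197 CPM in TL2i and 136, 157 and 139.7 CPM in TL-CDK8i libraries. These 6 libraries, from the protocols with tamoxifen, were all above the primed range, and the log2 fold changes were 1.92 ± 0.14 (adjusted p = 1.14e-07) and 1.41 ± 0.15 (adjusted p = 3.07e-06). GMNN was at 14.7, 24.9 and 29.2 CPM in NHSM-v, 31.6, 24.9 and 23.6 CPM in 4i/L/b and 18.8, 19.5 and 21.7 CPM in t2iLGöY libraries. These 9 libraries were all below the primed range, with log2 fold changes of -1.21 ± 0.23, -1.02 ± 0.19 and -1.36 ± 0.19 (adjusted p = 0.000321, 0.000404 and 3e-05). E-NHSM libraries, at 60.1, 61.4 and 62.5 CPM, and LCDM (EPS) libraries, at 40.4, 42.1 and 36.1 CPM, overlapped the primed range and did not pass the test (adjusted p = 0.344 and 0.0552). The 5 calls held under every alternative tried, and GMNN in LCDM (EPS) cells was called lower under 5 of 18 alternatives.

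CDT1, which brings the helicase to origins and is degraded as S phase begins, fell in 2 protocols. It was at 69.1 to 90.2 CPM with a median of 76.8 CPM in primed libraries. It was at 37.5, 47.4 and 38.8 CPM in 4i/L/b and 51.8, 40.1 and 50.3 CPM in t2iLGöY libraries, all below the primed range, and fell in both protocols (-0.97 ± 0.14 and -0.69 ± 0.15, adjusted p = 4.75e-05 and 0.000947). It was at 58.1, 71.9 and 65.2 CPM in NHSM-v, 75.7, 66.6 and 78.6 CPM in TL2i, 66.5, 62.1 and 65.2 CPM in LCDM (EPS), 65.5, 69 and 76.5 CPM in TL-CDK8i and 75.7, 83.5 and 82.9 CPM in E-NHSM libraries, none of which passed the test, although the LCDM (EPS) libraries were also below the primed range. GMNN and CDT1 transcripts thus both fell in 4i/L/b and t2iLGöY cells, while in TL2i and TL-CDK8i cells GMNN rose beside CDT1 values of -0.09 and -0.20 that did not pass the test.

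The helicase activation genes passed the test in 12 of 42 comparisons with primed cells (28.6%), all as falls. Over all genes and the 7 comparisons, 49.9% of tests passed in either direction. The share that fell was 83.3% in t2iLGöY, 50% in NHSM-v and 33.3% in 4i/L/b cells, against 27.2%, 30.6% and 29% of all genes. It was 16.7% in TL2i and LCDM (EPS) cells, against 25.2% and 28.9%. In E-NHSM and TL-CDK8i cells it was 0%, against 15.1% and 23.8%. MCM10, which helps to start unwinding, was at 97.7 to 129 CPM with a median of 116 CPM in primed libraries and lowest in t2iLGöY libraries at 57.7, 55.2 and 66.2 CPM. It was at 72.2, 81.8 and 73.9 CPM in NHSM-v, 82.3, 72.8 and 69.6 CPM in 4i/L/b and 79.6, 83.5 and 77.9 CPM in LCDM (EPS) libraries, and at 91.6, 81.5 and 84 CPM in TL2i libraries. These 5 groups lay below the primed range and MCM10 fell in each, most in t2iLGöY cells (-0.92 ± 0.12, adjusted p = 1.2e-05). E-NHSM libraries (84.4, 94.8 and 104 CPM) and TL-CDK8i libraries (105, 103 and 115 CPM) overlapped the primed range.

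The 4 GINS genes encode the complex that joins CDC45 and MCM2-7 in the active helicase. GINS2 fell in 3 protocols, most in NHSM-v libraries, at 16.6, 7.72 and 16.5 CPM against 32.7 to 43.2 CPM in primed libraries (-1.54 ± 0.24, adjusted p = 4.67e-05), and its call in t2iLGöY cells was lost without t2iLGöY 1 (adjusted p = 0.114). GINS1 fell in t2iLGöY cells only among the 7 protocols, at 7.57, 6.47 and 5.93 CPM against 10.6 to 21.1 CPM (-1.04 ± 0.32, adjusted p = 0.0131), a call lost with primed columns J only. GINS3, the member with the lowest counts, was at 9.31 to 16.9 CPM with a median of 10.1 CPM in primed libraries. It was at 14.9, 6.14 and 8.96 CPM in t2iLGöY, 17.6, 17.7 and 15.1 CPM in LCDM (EPS), 13.8, 7.73 and 12.7 CPM in E-NHSM, 12.1, 18.4 and 8.45 CPM in NHSM-v, 8.74, 7.42 and 11.9 CPM in 4i/L/b, 13.9, 10.3 and 9.62 CPM in TL2i and 10.7, 12.4 and 11.8 CPM in TL-CDK8i libraries. All groups overlapped the primed range. The SE of its log2 fold change was 0.27 to 0.36 against primed cells, so a change of that size would lie within the error between libraries. CDC45 fell in t2iLGöY cells and GINS4 in NHSM-v and t2iLGöY cells, and neither passed the test in the other protocols.

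Among the primase and polymerase genes, PRIM1 fell most. PRIM1, the catalytic subunit of the primase that lays down RNA primers, was at 67.8 to 84.3 CPM with a median of 80.9 CPM in primed libraries. It was at 24.7, 21.7 and 25.3 CPM in NHSM-v, 35.3, 21.9 and 28.3 CPM in t2iLGöY and 29.98, 28.1 and 37.3 CPM in 4i/L/b libraries. It was at 48.4, 40.5 and 41.1 CPM in TL2i, 46, 41.6 and 46.3 CPM in TL-CDK8i, 57.5, 50.8 and 57.7 CPM in LCDM (EPS) and 75.6, 94.3 and 90.4 CPM in E-NHSM libraries. E-NHSM libraries overlapped the primed range and the libraries of the other 6 protocols were below it. The log2 fold change reached -1.73 ± 0.14 in NHSM-v cells (adjusted p = 4.57e-08) and was -0.50 ± 0.11 in LCDM (EPS) cells (adjusted p = 0.00198).

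The partners of PRIM1 in the polymerase alpha and primase complex differed in direction. POLA1, the catalytic subunit of DNA polymerase alpha, fell in 6 protocols, from 145 to 196 CPM in primed to 77.7 to 81 CPM in NHSM-v libraries (-1.13 ± 0.11), and not in E-NHSM cells (183 to 208 CPM). PRIM2 fell in t2iLGöY, TL2i, 4i/L/b and NHSM-v cells, most in NHSM-v cells (17 to 20.6 against 37.1 to 52.6 CPM, -1.22 ± 0.18), and its call in TL2i cells was lost without TL2i 2, TL2i 3, primed K1 or primed K3 (adjusted p = 0.169, 0.121, 0.0508 and 0.0668). POLA2, in contrast, fell in E-NHSM and TL-CDK8i cells (-0.37 ± 0.13 and -0.48 ± 0.12) and rose in LCDM (EPS) cells (0.32 ± 0.11).

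The subunits of DNA polymerases delta and epsilon, which copy the lagging and leading strands, did not move as one. POLE2 fell in 4 protocols, most in t2iLGöY cells (8.45 to 15.3 against 21.9 to 41.4 CPM, -1.45 ± 0.27), and POLE, the catalytic subunit of polymerase epsilon, fell in 5, with log2 fold changes from -0.73 in t2iLGöY to -0.48 in 4i/L/b cells. In E-NHSM cells POLE was at 217 to 265 CPM against 358 to 402 CPM in primed cells (-0.68 ± 0.08, adjusted p = 4.98e-06). POLD3 rose in LCDM (EPS) cells (0.44 ± 0.13) and fell in 4i/L/b and TL-CDK8i cells (-0.53 ± 0.14 and -0.53 ± 0.14).

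POLD2, an accessory subunit of polymerase delta, was the only member that rose in a protocol without falling in another. It was at 78.6 to 103 CPM with a median of 90.4 CPM in primed libraries and at 129, 133 and 137 CPM in E-NHSM libraries, all above the primed range (0.54 ± 0.11, adjusted p = 0.000925). Its libraries were at 101, 108 and 103 CPM in NHSM-v, 107, 83.6 and 90.2 CPM in 4i/L/b, 111, 87.6 and 94.3 CPM in TL2i, 99.4, 88.3 and 119 CPM in t2iLGöY, 105, 104 and 95 CPM in LCDM (EPS) and 81, 90.6 and 96.5 CPM in TL-CDK8i cells. Those 6 groups overlapped the primed range and none passed the test.

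PCNA, the ring-shaped clamp that holds polymerases on DNA and a common S phase reporter, was at 234 to 282 CPM with a median of 248 CPM in primed libraries. It was at 155, 159.6 and 171 CPM in NHSM-v, 155, 159 and 155 CPM in t2iLGöY, 195, 174 and 178 CPM in 4i/L/b, 224, 171 and 185 CPM in TL2i and 188, 194 and 183 CPM in E-NHSM libraries. These 15 libraries were below the primed range and PCNA fell in the 5 protocols, from -0.68 ± 0.09 (adjusted p = 9.63e-06) to -0.40 ± 0.10 (adjusted p = 0.00446). In LCDM (EPS) libraries it was at 293, 287 and 286 CPM, all above the primed range, and in TL-CDK8i libraries at 264, 317 and 317 CPM, in part within it. The log2 fold changes of 0.18 ± 0.08 and 0.18 ± 0.09 did not pass the test (adjusted p = 0.0622 and 0.122), and PCNA was called higher under 8 of 18 alternatives in LCDM (EPS) and 4 of 18 in TL-CDK8i cells. PCNA has processed pseudogenes in primates, and reads shared with them could be lost in counting, so its level is uncertain.

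The clamp loader, replication factor C, opens PCNA and places it on DNA. RFC3 was at 61.7 to 78.1 CPM with a median of 72 CPM in primed libraries. It was at 29.9, 27.9 and 35.6 CPM in t2iLGöY, 41.4, 32.3 and 41.3 CPM in NHSM-v, 45.1, 43.3 and 44.1 CPM in 4i/L/b, 37.6, 50.5 and 49 CPM in TL-CDK8i and 55.1, 48.4 and 53.5 CPM in TL2i libraries. The libraries of these 5 protocols were below the primed range, and RFC3 fell most in t2iLGöY cells (-1.18 ± 0.14, adjusted p = 5.18e-06). E-NHSM libraries (43.8, 65.6 and 51.9 CPM) overlapped the primed range but RFC3 was called lower there (-0.43 ± 0.14, adjusted p = 0.0302), a call lost under 6 of 18 alternatives, among them without E-NHSM 1, E-NHSM 3, primed J2 or primed K2 (adjusted p = 0.214, 0.125, 0.0522 and 0.0628). In LCDM (EPS) libraries RFC3 was at 60.6, 64.9 and 65.1 CPM (-0.18 ± 0.11, adjusted p = 0.184).

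RFC5 had the weakest calls of the clamp loader. It was at 33.9 to 53 CPM with a median of 40.5 CPM in primed libraries, 30.3, 30.3 and 30.2 CPM in E-NHSM and 57.7, 53.3 and 50.1 CPM in LCDM (EPS) libraries. It passed the test as lower in E-NHSM cells (-0.46 ± 0.17, adjusted p = 0.0499) and higher in LCDM (EPS) cells (0.37 ± 0.15, adjusted p = 0.0496), with LCDM (EPS) libraries that overlapped the primed range, and these calls were lost under 13 and 10 of 18 alternatives. The first was lost without any 1 E-NHSM library or primed J1, K1, K2 or K3 (adjusted p of 0.0583 to 0.146), the second without any 1 LCDM (EPS) library or primed J1, J2, J3 or K2 (adjusted p of 0.0642 to 0.149). It was at 39, 39.5 and 37.6 CPM in NHSM-v, 41.6, 27.5 and 33.7 CPM in 4i/L/b, 41.4, 36.8 and 42.9 CPM in TL2i, 40.5, 27.8 and 37.2 CPM in t2iLGöY and 39.9, 54.8 and 57.9 CPM in TL-CDK8i libraries, with no call. RFC4 fell in 6 protocols, most in NHSM-v cells (41.6 to 50.4 against 82.7 to 125 CPM, -1.10 ± 0.14), RFC1 fell in 3 and RFC2 in 3. The call of RFC4 was lost in TL2i cells without TL2i 1, 2 or 3 (adjusted p = 0.108, 0.0599 and 0.0542) and in LCDM (EPS) cells without LCDM (EPS) 1 or 3 (adjusted p = 0.0853 and 0.0636).

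Of the 5 genes of single-strand binding and Okazaki fragment joining, all fell in 4i/L/b and NHSM-v cells. RPA1, the large subunit of the complex that coats single-stranded DNA, was at 156 to 219.9 CPM with a median of 175 CPM in primed libraries. It was at 122, 107 and 111 CPM in NHSM-v and 140.5, 129.6 and 146 CPM in 4i/L/b libraries, below the primed range, and at 226, 270.4 and 286 CPM in TL-CDK8i libraries, above it. RPA1 fell in the first 2 protocols (-0.72 ± 0.11 and -0.44 ± 0.11, adjusted p = 5.84e-05 and 0.00303) and rose in TL-CDK8i cells (0.46 ± 0.11, adjusted p = 0.00342). It did not pass the test in E-NHSM (157, 146 and 165 CPM), TL2i (174, 144 and 157 CPM), t2iLGöY (166, 174 and 162 CPM) and LCDM (EPS) libraries (164, 172 and 159 CPM), each overlapping the primed range.

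The smaller RPA subunits had larger log2 falls than RPA1 in NHSM-v cells, a difference between genes that was not tested. RPA2 was at 16.6 to 21 CPM there against 37.6 to 71.2 CPM in primed libraries (-1.44 ± 0.21), and RPA3 at 10.6 to 12.8 against 30.1 to 35.3 CPM (-1.49 ± 0.18). RPA2 and RPA3 did not pass the test in TL-CDK8i cells, at 42 to 52.4 and 22.9 to 33.6 CPM. The call of RPA2 was lost in 4i/L/b cells without 4i/L/b 1 or 3 (adjusted p = 0.0663 and 0.0723) and in t2iLGöY cells without t2iLGöY 1, t2iLGöY 2 or primed K1 (adjusted p = 0.148, 0.144 and 0.0591), and that of RPA3 in TL2i cells without TL2i 2 (adjusted p = 0.0596).

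LIG1, the ligase that seals Okazaki fragments, was at 152 to 184 CPM with a median of 169 CPM in primed libraries. It was at 87.9, 74.9 and 86.6 CPM in t2iLGöY, 83.5, 94.1 and 90.3 CPM in NHSM-v, 101, 89.5 and 90.01 CPM in 4i/L/b and 95.6, 94.3 and 97.8 CPM in TL-CDK8i libraries, and at 123, 101 and 121 CPM in TL2i and 117, 129 and 125 CPM in LCDM (EPS) libraries. All 18 of these libraries were below the primed range and LIG1 fell in the 6 protocols, from -0.99 ± 0.10 (adjusted p = 9.56e-07) to -0.44 ± 0.09 (adjusted p = 0.000696). E-NHSM libraries, at 172, 150.0 and 156 CPM, overlapped it (-0.08 ± 0.09). FEN1, the nuclease that trims the flaps of these fragments, fell in 4 protocols, most in 4i/L/b cells (39.9 to 44.4 against 66.7 to 100.5 CPM, -1.03 ± 0.14). Its call in TL-CDK8i cells was lost without any 1 TL-CDK8i library, primed K1 or primed K3 (adjusted p of 0.0507 to 0.14).

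The nucleotide supply genes passed the test in both directions. RRM1 and RRM2, the large and small subunits of ribonucleotide reductase, which makes deoxynucleotides, moved in opposite directions in 3 protocols. RRM2, whose level peaks in S phase, was at 402 to 475 CPM with a median of 433 CPM in primed libraries. It was at 177, 183 and 155 CPM in E-NHSM, 185, 161 and 195 CPM in t2iLGöY and 231, 259 and 255 CPM in NHSM-v libraries. It was at 289, 253 and 285 CPM in TL2i, 318, 285 and 278 CPM in 4i/L/b, 362, 385 and 323 CPM in LCDM (EPS) and 347, 376 and 405 CPM in TL-CDK8i libraries. TL-CDK8i libraries overlapped the primed range and those of the other 6 protocols were below it. The fall in E-NHSM cells (-1.36 ± 0.08, adjusted p = 1.39e-09) was the only one of at least 1 on the log2 scale among the 44 members in that protocol. The falls in TL-CDK8i cells (-0.27 ± 0.08, adjusted p = 0.0106) and LCDM (EPS) cells (-0.29 ± 0.07, adjusted p = 0.00398) were each lost under 2 of 18 alternatives, the first without TL-CDK8i 1 (adjusted p = 0.109) and the second without LCDM (EPS) 3 (adjusted p = 0.0529) among them.

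RRM1 was at 221 to 261 CPM with a median of 234 CPM in primed libraries and at 379.8, 368 and 386 CPM in LCDM (EPS) libraries, all above the primed range. It was at 347, 268 and 284 CPM in TL2i and 292, 289 and 303 CPM in t2iLGöY libraries, also above it. RRM1 rose in these 3 protocols, by 0.68 ± 0.07, 0.34 ± 0.09 and 0.35 ± 0.08 on the log2 scale (adjusted p = 1.58e-06, 0.00679 and 0.00145), while RRM2 fell in the same 3. RRM1 was at 173, 199 and 209 CPM in TL-CDK8i and 193, 195 and 216 CPM in E-NHSM libraries, all below the primed range, and fell in both (-0.34 ± 0.09 and -0.24 ± 0.08, adjusted p = 0.00562 and 0.0429). The call in E-NHSM cells was lost under 11 of 18 alternatives, among them without any 1 E-NHSM library or primed K1, K2 or K3 (adjusted p of 0.0547 to 0.195). That in TL-CDK8i cells was lost without TL-CDK8i 1 (adjusted p = 0.0701) and that in TL2i cells without TL2i 1 (adjusted p = 0.0636). In NHSM-v libraries (269.7, 258 and 259 CPM) and 4i/L/b libraries (296, 242 and 286 CPM) the values of 0.12 ± 0.08 and 0.17 ± 0.08 did not pass the test, with calls as higher under 3 and 9 of 18 alternatives.

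TYMS, thymidylate synthase, was at 123 to 153 CPM with a median of 141 CPM in primed libraries. It was at 232, 169.7 and 205 CPM in TL2i and 184, 188 and 198 CPM in TL-CDK8i libraries, all above the primed range, and rose in both (0.53 ± 0.10 and 0.39 ± 0.09, adjusted p = 0.000835 and 0.00297). It was at 77.3, 67.3 and 75.5 CPM in NHSM-v, 100.4, 106 and 103 CPM in t2iLGöY and 101, 95.8 and 122 CPM in E-NHSM libraries, all below the primed range. It fell in these 3 protocols (-0.96 ± 0.11, -0.41 ± 0.10 and -0.40 ± 0.11), the call in E-NHSM cells being lost without E-NHSM 1 or 2 (adjusted p = 0.0656 and 0.0847). In 4i/L/b libraries, at 143, 131 and 147 CPM, and LCDM (EPS) libraries, at 141, 142 and 131 CPM, TYMS overlapped the primed range.

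TK1, the thymidine kinase of dividing cells, was at 25.7 to 54.3 CPM with a median of 41.8 CPM in primed libraries. It was at 57.4, 70.1 and 66.5 CPM in TL-CDK8i libraries, all above the primed range, and rose there (0.62 ± 0.18, adjusted p = 0.0128), a call lost without TL-CDK8i 2 (adjusted p = 0.0683). It fell in NHSM-v (28.5, 24.3 and 17.3 CPM, -0.83 ± 0.23), t2iLGöY (22.8, 22.8 and 24.6 CPM, -0.77 ± 0.21) and 4i/L/b cells (27, 26.1 and 25.2 CPM, -0.68 ± 0.20), with libraries that overlapped the primed range in 4i/L/b and NHSM-v cells. These 3 calls were lost with primed columns J only, and that in NHSM-v cells also without NHSM-v 3 (adjusted p = 0.0519). In TL2i (38.7, 31.1 and 39.2 CPM), LCDM (EPS) (30.2, 39.1 and 33.7 CPM) and E-NHSM libraries (26.2, 36.5 and 43.4 CPM) TK1 did not pass the test.

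**Figure D4:**
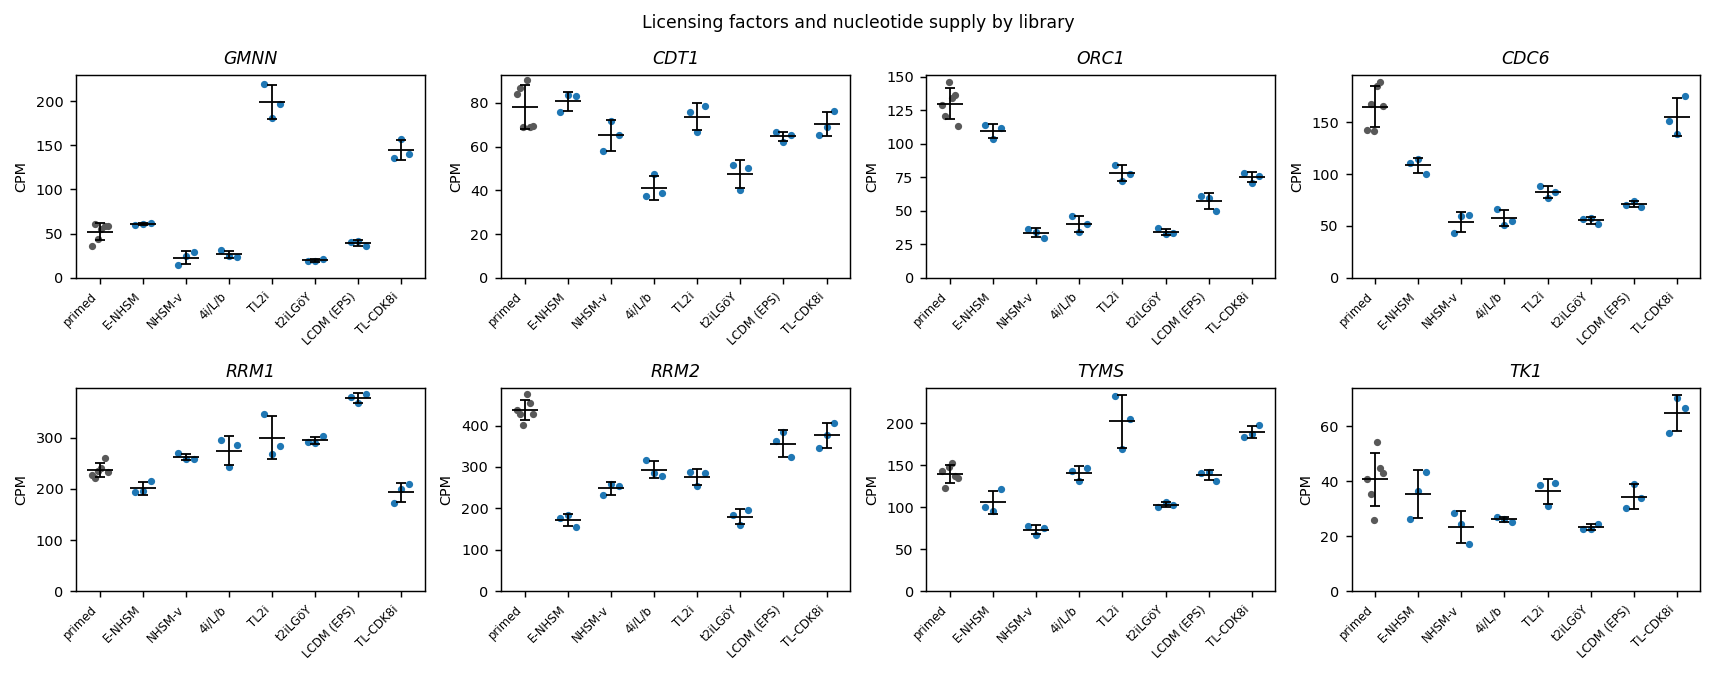
Levels in CPM (linear axes from 0) of 4 licensing genes (GMNN, CDT1, ORC1, CDC6) and 4 nucleotide supply genes (RRM1, RRM2, TYMS, TK1) in 6 primed libraries (grey points) and 3 libraries of each protocol (blue points), with horizontal marks for group means and error bars for 1 SD. GMNN in TL2i and TL-CDK8i lies above all primed points, CDC6 in TL-CDK8i lies among them, and RRM2 is lowest in E-NHSM and t2iLGöY.

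TL-CDK8i and TL2i cells, which share tamoxifen and LIF and differ in their inhibitors, were compared directly, 3 libraries against 3. In TL-CDK8i cells 9 members were higher and 12 lower than in TL2i cells, or 20.5% and 27.3% of the 44, beside 31.5% and 33.3% of all genes tested, so the shares were below the background in both directions. The balance turned with the processing, with 6 higher and 16 lower with total counts only, 11 and 10 with no filter on low counts and 11 and 11 with DESeq2. Of all genes, 27% and 39%, 27.7% and 27.2%, and 31.8% and 31.4% were called under these settings. The members numbered 10 and 9 without library TL2i 1, 9 and 8 without TL2i 3, and 11 and 9 without TL-CDK8i 1. There, 28.9% to 33% of all genes were called in each direction. The median log2 fold change was -0.02, against -0.04 for all genes. None of the 44 members differed by 1 or more on the log2 scale.

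CDC6 differed most, at 152, 139 and 175 CPM in TL-CDK8i and 88.6, 76.8 and 83.2 CPM in TL2i libraries, without overlap (0.87 ± 0.10, adjusted p = 5.83e-06). TK1 (0.80 ± 0.12), RPA1 (0.69 ± 0.10), PCNA (0.60 ± 0.11), MCM5 (0.45 ± 0.11) and RRM2 (0.42 ± 0.09) were also higher in TL-CDK8i cells, with adjusted p values of 4.55e-05, 5.07e-05, 0.000293, 0.00238 and 0.00126. RRM1 was lower in TL-CDK8i cells (-0.66 ± 0.11, adjusted p = 0.000113), so that the subunits of ribonucleotide reductase differed in opposite directions here too. GMNN was higher in TL2i than in TL-CDK8i cells, with a log2 fold change of TL-CDK8i over TL2i of -0.50 ± 0.10 (adjusted p = 0.000493). GINS4 (-0.64 ± 0.13), POLD3 (-0.64 ± 0.10) and POLA2 (-0.59 ± 0.11) were lower in TL-CDK8i cells.

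Of the 6 MCM subunits, 1 was higher and 1 lower. MCM5 was higher and MCM7 lower in TL-CDK8i cells (-0.26 ± 0.10, adjusted p = 0.0376), the MCM7 libraries overlapped, and its call was lost under 7 of 13 alternatives, among them without TL2i 1, TL2i 3, TL-CDK8i 1 or TL-CDK8i 2 (adjusted p = 0.166, 0.189, 0.106 and 0.0848). MCM2, MCM3, MCM4 and MCM6 had log2 fold changes of -0.21 ± 0.11, -0.09 ± 0.10, 0.04 ± 0.09 and -0.04 ± 0.10 and did not pass the test. ORC1 (-0.09 ± 0.10), PRIM1 (0.01 ± 0.11) and TYMS (-0.12 ± 0.11) did not pass it either.

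**Figure D5:**
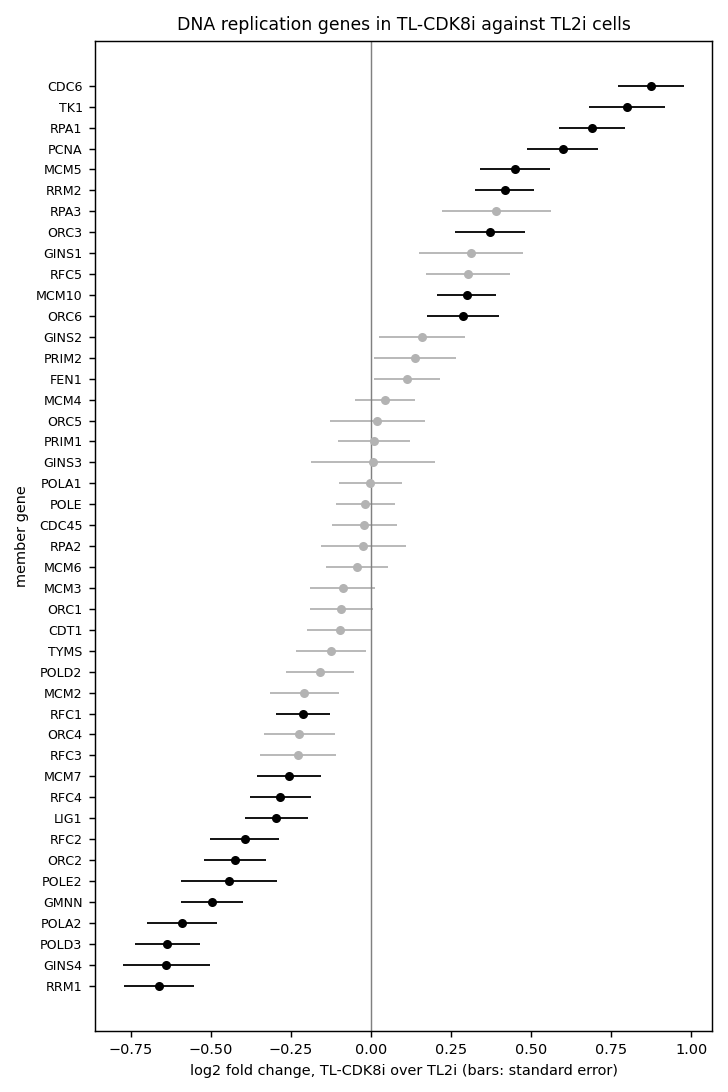
Log2 fold change of the 44 DNA replication genes in TL-CDK8i over TL2i cells, ordered by value, with bars for 1 SE, black where the adjusted p was below 0.05 and grey otherwise. CDC6 (0.87) and TK1 (0.80) stand at the top and RRM1 (-0.66) at the bottom.

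Genes related to replication outside the 44 were counted from 3 further lists. Of 37 other replication factors (checkpoint, chromatin assembly, nucleotide and origin firing genes), 25 fell in 4i/L/b, 23 in NHSM-v, 20 in t2iLGöY, 20 in TL-CDK8i, 14 in TL2i, 12 in LCDM (EPS) and 6 in E-NHSM cells. The counts that rose were 1, 0, 2, 3, 2, 6 and 2 in the same order. These are 2.7%, 0%, 5.41%, 8.11%, 5.41%, 16.2% and 5.41% of the 37. Of all genes, 26.6%, 28%, 27.1%, 22.3%, 25.6%, 28.2% and 11.1% rose. The share that fell was 62.2% in NHSM-v cells against 30.6% of all genes, and 67.6% in 4i/L/b cells against 29%. It was 54.1% in t2iLGöY cells against 27.2%, 54.1% in TL-CDK8i cells against 23.8% and 37.8% in TL2i cells against 25.2%. It stood near the background in LCDM (EPS) cells (32.4% against 28.9%) and E-NHSM cells (16.2% against 15.1%). DUT, the dUTPase that keeps uracil out of DNA, changed most on average, from 233 to 276 CPM in primed to 32.4 to 44.8 CPM in NHSM-v libraries (-2.69 ± 0.12), and fell in all 7 protocols, with -0.41 ± 0.08 in E-NHSM cells.

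The 10 E2F and DP genes are transcription factors of the G1 to S passage. In LCDM (EPS) cells 6 rose and 1 fell, or 60% and 10%, against 28.2% and 28.9% of all genes. In E-NHSM cells 5 fell and 0 rose, or 50% and 0%, against 15.1% and 11.1%. In NHSM-v, 4i/L/b and t2iLGöY cells 1, 1 and 0 rose and 2, 3 and 2 fell. In TL2i cells 2 rose and 2 fell, or 20% each, against 25.6% and 25.2% of all genes. In TL-CDK8i cells 1 rose and 4 fell, or 10% and 40%, against 22.3% and 23.8%. The shares that fell in NHSM-v, t2iLGöY and 4i/L/b cells were 20%, 20% and 30%, below or near the 30.6%, 27.2% and 29% of all genes. Those that rose were 10%, 0% and 10%, against 28%, 27.1% and 26.6%. E2F2 rose in 3 protocols and fell in 0. It rose most in LCDM (EPS) libraries, at 31 to 36.3 CPM against 2.7 to 13.6 CPM in primed ones (2.54 ± 0.38, adjusted p = 6.03e-05). TFDP2 was at 439 to 479.6 CPM in LCDM (EPS) against 133 to 178 CPM in primed libraries (1.55 ± 0.08, adjusted p = 2.21e-09). TFDP2 fell in E-NHSM, NHSM-v, TL2i and TL-CDK8i cells, most in NHSM-v cells (-0.76 ± 0.11).

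Of 18 mitosis genes, 17 fell in NHSM-v, 16 in 4i/L/b, 12 in t2iLGöY, 10 in TL-CDK8i, 7 in LCDM (EPS), 6 in TL2i and 5 in E-NHSM cells, while 0, 0, 0, 2, 1, 2 and 0 rose. The rises are 0%, 0%, 0%, 11.1%, 5.56%, 11.1% and 0% of the 18. Of all genes, 28%, 26.6%, 27.1%, 22.3%, 28.2%, 25.6% and 11.1% rose. The share that fell was 94.4% in NHSM-v cells against 30.6% of all genes, and 88.9% in 4i/L/b cells against 29%. It was 66.7% in t2iLGöY cells against 27.2%, and 55.6% in TL-CDK8i cells against 23.8%. In LCDM (EPS) cells it was 38.9% against 28.9%, in TL2i cells 33.3% against 25.2% and in E-NHSM cells 27.8% against 15.1%. TTK, a kinase of the spindle checkpoint, was at 107 to 143 CPM in primed and 35.6 to 50.2 CPM in NHSM-v libraries (-1.65 ± 0.14). CDC20, which activates the anaphase-promoting complex, was at 222 to 353 CPM in primed and 88.3 to 105 CPM in 4i/L/b libraries (-1.60 ± 0.13). TTK and CDC20 each fell in 6 protocols and in E-NHSM cells had values of 0.27 ± 0.10 and -0.13 ± 0.11 that did not pass the test.

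Markers of other cells also differed between the groups. The summed level of 7 neural markers was 12.1 to 22.3 CPM in primed and 17.9 to 26.1 CPM in E-NHSM libraries, with INSM1 at 0 in the first group and NEUROG2 at 0 in the second. It was 139 to 169.9 CPM in TL-CDK8i, 204 to 230.2 in TL2i, 290.2 to 333 in 4i/L/b, 484 to 541 in NHSM-v, 1561 to 1674 in t2iLGöY and 2211 to 2370.5 in LCDM (EPS) libraries. All 7 neural markers passed the filter on low counts and rose in NHSM-v, t2iLGöY and LCDM (EPS) cells. Of 6 tested in 4i/L/b and 6 in TL2i cells 5 rose in each, of 4 tested in TL-CDK8i cells 3 rose, and of 3 tested in E-NHSM cells 1 rose.

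The summed level of 7 fibroblast markers was 1137 to 2407 CPM in primed, 405 to 451 in E-NHSM, 769 to 999 in LCDM (EPS), 2949 to 5732 in TL2i, 3418 to 4022 in t2iLGöY, 7842 to 8372 in NHSM-v, 8667 to 11213 in TL-CDK8i and 11594 to 15059.5 in 4i/L/b libraries. LUM and DCN, both among these markers, were at 0 in all primed, E-NHSM and t2iLGöY libraries. Of the 7 fibroblast markers, 6 rose and 0 fell in NHSM-v, 6 rose and 1 fell in each of 4i/L/b and TL2i, 5 rose and 0 fell in TL-CDK8i, and 2 rose and 4 fell in LCDM (EPS) cells. Only 5 of them were tested in E-NHSM cells, where 5 fell, and 5 in t2iLGöY cells, where 3 rose and 2 fell. Of the 7 pluripotency markers, 7 fell in each of TL-CDK8i, TL2i, t2iLGöY, 4i/L/b and NHSM-v cells and 6 in LCDM (EPS) cells, and in E-NHSM cells 3 rose and 2 fell. By neural sum, LCDM (EPS) libraries stood highest, with 18 members that fell, and t2iLGöY libraries next, with 33. By fibroblast sum, 4i/L/b libraries stood highest, with 33 members that fell, then TL-CDK8i with 24 and NHSM-v with 33. The lowest pluripotency sums were those of NHSM-v, 4i/L/b and t2iLGöY libraries, with 33 members that fell in each. The part of these other cell types in the fall of the DNA replication genes was not tested.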

How the data were processed

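RNA was made into 27 directional mRNA libraries (NextFlex Rapid kit) and sequenced as single 75 bp reads. The values deposited by the authors are raw counts of reads for each gene symbol, not normalized and not pooled, and the submitters' processing notes name bcl2fastq, cutadapt, HISAT2 and HTSeq. The genome build, annotation, strand setting and treatment of reads shared between genes are not given in the sources used here, so counts of genes with pseudogenes or overlapping genes are uncertain. Names of the 6 primed columns give their group but not their label, and the labels' set numbers disagree between title and protocol for 2 libraries. All 6 were therefore kept as 1 group.

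TMM scaling, CPM and the quasi-likelihood test were computed in edgeR 4.0.16 (R 4.3.3). Each comparison used its own libraries, over genes kept by filterByExpr, with Benjamini-Hochberg adjustment over all of them and a threshold of 0.05. All 44 members passed the filter in all 8 comparisons. The SE is the log2 fold change over the square root of its F value. The 36 pairs of libraries of the same group differed by more than counting noise (chi-square of 4.06 to 30.8 per gene). Same-numbered libraries did not deviate together (correlations of -0.13 to 0.017 over 24 pairs), so no pairing was used. The script was tested on simulated counts.

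The 45 genes, the roles, lists and markers were chosen with earlier results of these data known. Values in all libraries are given for the members with the highest and lowest mean log2 fold change in each role, for those called in opposite directions by at least 0.5 and for GMNN, CDT1 and PCNA. Members that changed by at least 1 in a protocol are given by group ranges, and for each further list the 2 genes with the largest mean absolute log2 fold change are named, except 1 that is not reported here. POLE, POLA2, POLD3, ORC5, ORC6, CDC45, GINS4, RFC1 and RFC2 are outside this rule and were named after their values were seen. Alternatives were DESeq2 1.42.0, upper-quartile scaling, total counts only, no filter, at least 10 counts in every library, a log2 fold change of at least 1, all 8 groups in one fit, a replicate block, primed columns J or K only, and each library left out in turn.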

Additional observations from a re-analysis of the deposited data

Results flagged for a closer look

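Among the 44 members in the 6 primed libraries, the 1 group large enough for the test, a Dixon test marked 2 genes in which 1 library stood far from the others, and chance marks about 1 in 20. MCM5 was at 255 CPM in primed J3, where the next library was at 209.9 CPM and the lowest at 185 CPM. GINS1 was at 21.1 CPM in primed K2, where the next was at 14.4 CPM and the lowest at 10.6 CPM. The falls of MCM5 in all 7 protocols held without primed J3, and the fall of GINS1 in t2iLGöY cells held without primed K2.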

How the results depend on the processing

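Of the 178 called fold changes of named members, 0 changed sign under any alternative run, while 42 of the 102 that were not called did under at least 1. In TL-CDK8i against TL2i cells the lower members outnumbered the higher ones as reported, but not with DESeq2 (11 and 11), no filter (11 higher, 10 lower), all 8 groups in one fit (8 and 8) or without TL2i 1, TL2i 3, TL-CDK8i 1 or TL-CDK8i 2. Requiring a log2 fold change of at least 1 left 0 higher and 1 lower in E-NHSM, 18 lower in NHSM-v, 13 lower in 4i/L/b, 1 higher and 0 lower in TL2i, 0 higher and 17 lower in t2iLGöY, 0 higher and 4 lower in LCDM (EPS), 1 higher and 0 lower in TL-CDK8i cells, and 0 in each direction between TL-CDK8i and TL2i cells. In E-NHSM cells the members that rose numbered 3 with upper-quartile scaling or total counts only, 2 with at least 10 counts in every library or all 8 groups in one fit, and 4 with primed columns J only, and those that fell numbered 9 with upper-quartile scaling and 9 with total counts only. Of all genes, 12.9% and 12.5% fell under these scalings, against 15.1% in the main fit. In NHSM-v cells 1 member rose with DESeq2 or primed columns J only. In 4i/L/b cells 1 member rose with DESeq2, upper-quartile scaling, total counts only, no filter, at least 10 counts, all 8 groups in one fit or primed columns J only, and in t2iLGöY cells 2 rose with total counts only. The cause of these moves was not tested, apart from the fold limit, which removes small changes by construction.

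With 1 library left out, the members that rose were 1 to 2 and those that fell 8 to 17 in E-NHSM, 0 to 1 and 30 to 35 in NHSM-v, 0 to 1 and 31 to 34 in 4i/L/b, 2 to 3 and 18 to 21 in TL2i, 1 and 30 to 33 in t2iLGöY, 3 to 6 and 15 to 21 in LCDM (EPS), 3 to 5 and 16 to 24 in TL-CDK8i, and 7 to 11 and 8 to 11 in TL-CDK8i against TL2i cells. Counts moved by over 1.5 times without E-NHSM 1 or 3 (falls, 8 and 9), without E-NHSM 3, primed K1 or primed K2 (rises in E-NHSM cells, 2 each), without primed K2 (rises in NHSM-v cells, 1), without 4i/L/b 2 or primed K2 (rises in 4i/L/b cells, 1 each) and without any 1 of the LCDM (EPS) libraries (rises, 3 each). Without E-NHSM 1 or 3, 11.1% and 11% of all genes fell in E-NHSM cells. With the replicate block, which rests on numbers that only name the libraries, 15 falls in E-NHSM cells became 12 and 12 in TL-CDK8i against TL2i cells became 10, and no count moved by over 1.5 times. In the named members, 4794 of 5145 values kept their side of the threshold, 252 lost and 99 gained a call. The lowest count of any member was 61, that of GINS3.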
